A study of Arabidopsis thaliana with 17 samples.

Results

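The plastid chromosome of Arabidopsis thaliana carries, beside its photosynthesis genes, the genes for a transcription and translation machinery and for a few other chloroplast functions, and the transcripts of these genes are described here. The members were the probe sets of single plastid-encoded protein genes, with locus tags beginning ArthCp, other than genes whose symbols begin with psa, psb, pet, atp or ndh and other than rbcL, ycf3 and ycf4. They were 31 of the 22810 probe sets on the array and stood for 30 genes, because rps12 had 2 probe sets. Of the 31 probe sets, 7 were listed with 2 gene IDs of the same symbol. They were those of genes with copies in the inverted repeat (rpl2, rpl23, ycf2, rps7, ycf1) and both probe sets of rps12. The signals of the repeat genes belong to both copies together. Which part of rps12 each of its probe sets reads is not given in the annotation used here.

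Transcripts were measured on 17 ATH1 arrays in rosette leaves of 4-week-old plants, each array with 5 µg of total RNA from 1 pool of 10 plants, described as biological replicates. The single mutants were stn7-1 (3 arrays), psad1-1 (2) and psae1-3 (2), the doubles were psad1-1 stn7-1 (3) and psae1-3 stn7-1 (2), and the wild types Col-0 (3) and Wassilewskija (2), with no treatment. STN7 is a thylakoid protein kinase on which the long-term acclimation of leaves to the colour of light (LTR) depends, and PSAD and PSAE sit on the stromal face of photosystem I near the docking site of ferredoxin. The labels do not give the kind of mutation or the parent line of each mutant, so each mutant was compared with the wild type of its own array set.

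Chloroplast genes are transcribed by a bacterial-type RNA polymerase, whose core subunits alpha, beta, beta′ and beta″ are encoded by rpoA, rpoB, rpoC1 and rpoC2, and by phage-type polymerases encoded in the nucleus. The messages are translated on bacterial-type ribosomes whose proteins come partly from the plastid (rps and rpl genes) and partly from the nucleus, as do the subunits of the Clp protease and of the plastid acetyl-CoA carboxylase. Most plastid transcripts come from clusters of genes read together, are cut and trimmed afterwards, and lack the long poly(A) tails of nuclear messages.

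Values are signal intensities, brought here to a 2% trimmed mean of 100 on every array. The deposited scale set apart 11 arrays (stn7-1, psad1-1, psad1-1 stn7-1 and Col-0, trimmed mean 100, called the first set here) from 6 (psae1-3, psae1-3 stn7-1 and Wassilewskija, trimmed mean 500, the second set). The median member signal per array ranged over 218 to 1449 among the 11 and 1301 to 2438 among the 6. The control for 25S rRNA had signals of 522 to 2128 across the first set and 15.1 to 22.1 across the second. The 3′ to 5′ signal ratio of actin was 2.18 to 3.39 on arrays of the first set and 1.87 to 2.97 on those of the second. Since the sets share no genotype, the accession and the set of arrays cannot be told apart, and levels are not compared between the sets. The leaf genes RCA (Rubisco activase) and PRK (phosphoribulokinase) read 3198 to 6704 on the arrays. In whole leaves, fewer cells of a type and less RNA per cell cannot be told apart.

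Of the 31 probe sets 29 were bright enough to be tested. The other 2 were rpoB, with signals of 3.04 to 8.50 on the first set's arrays and 66.2 to 127 on the second's, and ycf2, which encodes a large protein of the envelope import machinery, at 0.421 to 13.1 and 31.7 to 79.0. The level below which a signal is no sign of expression was 8.15, the 95th percentile of control probe sets without a target, so both stood around background in the first set.

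In stn7-1, 6 of the 29 tested probe sets rose against Col-0 and none fell, beside 9.74% of all tested probe sets higher and 9.17% lower. They were the ribosomal protein genes rps16, rps3, rpl36, rpl14 and rpl22 and the import gene ycf1. The median change of the 29 was 0.59 log2, and 28 of them stood above 0, while the median over all 13648 tested probe sets was −0.03. The other plastid-encoded genes also stood mostly above 0. The median was 0.49 log2 for the photosynthesis genes, with 32 of 35 above 0. It was 0.32 log2 for the ndh genes, with 8 of 10 tested above 0, and 0 of either group passed. All 3 stn7-1 arrays were above all 3 Col-0 arrays in 9 of the 29, against 17.7% of all tested probe sets. The tests are those of limma's moderated linear model over all arrays, with adjusted p from Benjamini-Hochberg over all tested probe sets and a threshold of 0.05.

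The number of calls in stn7-1 changed when single arrays were left out. Col-0 replicate B was the lowest of the Col-0 arrays in 28 of 31 members, against 43.5% of all tested probe sets. Without it 1 member passed, rpl36, and the median fell to 0.25 log2, while calls over all tested probe sets fell from 2580 to 1326. The count was 10 without Col-0 replicate A, 3 without stn7-1 replicate A and 3 with the first set fitted alone. It was 2 without stn7-1 replicate B, where 1451 of all tested probe sets were called. The 25S rRNA control read 1568, 1651 and 1376 in stn7-1, against 1198, 522 and 1077 in Col-0. The median member signals of these arrays were 1449, 1207 and 863 in stn7-1 and 974, 218 and 810 in Col-0. In psad1-1 replicate A and psad1-1 stn7-1 replicates A and B the control read 1468, 1545 and 1328, above every Col-0 array. There the median member signals were 321, 361 and 310, below Col-0 replicates A and C. The part of the control in the result was not tested.

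In psad1-1, 1 of 29 rose against Col-0, rps18, and none fell, where 19.3% of all tested probe sets were higher and 21.1% lower. In psad1-1 stn7-1 the count was again 1 higher, rpl14, and 0 lower, against 19.2% higher and 21.6% lower of all. The median change was 0.24 log2 in psad1-1 and −0.000849 log2 in psad1-1 stn7-1, beside −0.02 log2 over all tested probe sets in both. With 1 array left out the psad1-1 median ran from −0.08 log2 (without Col-0 replicate B) to 0.62 log2 (without psad1-1 replicate A), and its count was 0 without psad1-1 replicate B and 4 without psad1-1 replicate A or Col-0 replicate A. In psad1-1 stn7-1 the median was −0.21 log2 without Col-0 replicate B and 0.30 log2 without Col-0 replicate A, with 0 and 3 calls, and no member passed when any 1 of its own arrays was left out. At an unadjusted p under the same threshold 3 members stood in each comparison, where 48.4% and 47.9% of all did. These 3 comparisons share the Col-0 arrays, and differences between mutants were not tested. A probe set of a gene strongly expressed in roots, PYK10, read 359 and 208 in psad1-1 and 455, 576 and 442 in psad1-1 stn7-1, against 19.8, 19.2 and 37.1 in Col-0, and its part was not tested.

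In psae1-3 no member passed against Wassilewskija, beside 5.41% of all tested probe sets higher and 6.9% lower. An unadjusted p under the threshold was found in 3 of 29, against 28.2% of all. In psae1-3 stn7-1 none passed either, beside 7.43% higher and 8.79% lower, and 1 had an unadjusted p under the threshold, against 29.8% of all. The median change was 0.28 log2 in psae1-3, with 25 of 29 above 0, and −0.01 log2 in psae1-3 stn7-1, with 14 above 0. Over all tested probe sets it was −0.11 and −0.05. For the plastid-encoded photosynthesis genes it was 0.24 and 0.09, with 30 and 21 of 35 above 0. For the ndh genes it was 0.40 and 0.24, with 10 and 8 of 10 tested above 0. Of these, 1 ndh gene passed as higher in psae1-3. Both psae1-3 arrays were above both Wassilewskija arrays in 15 of 29, against 20.3% of all. In psae1-3 stn7-1 both arrays were above in 8 and below in 6, against 24.7% and 32.8% of all.

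The fit takes 1 spread per probe set from both array sets, and the members varied far more in the first. The SD of log2 signals between arrays of a genotype had a median of 0.46 over the members in the first set and 0.16 in the second, against 0.19 and 0.18 over all tested probe sets. With the second set fitted alone, 5 members passed as higher in psae1-3 (rps16, rpoC2, rpoC1, clpP, accD) and 1 in psae1-3 stn7-1 (accD), where 4.41% and 6.11% of all tested probe sets were higher. None passed as lower in either. With the first set fitted alone, 3 members passed as higher in stn7-1 (rpl36, rpl14, rpl22). In psad1-1 2 passed (rps18, rpl36) and in psad1-1 stn7-1 1 (rpl36). Of all tested probe sets 9.78%, 19.6% and 19.1% were higher. The calls of rps16, rps3 and ycf1 in stn7-1 and of rpl14 in psad1-1 stn7-1 were lost there.

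**Figure D1:**
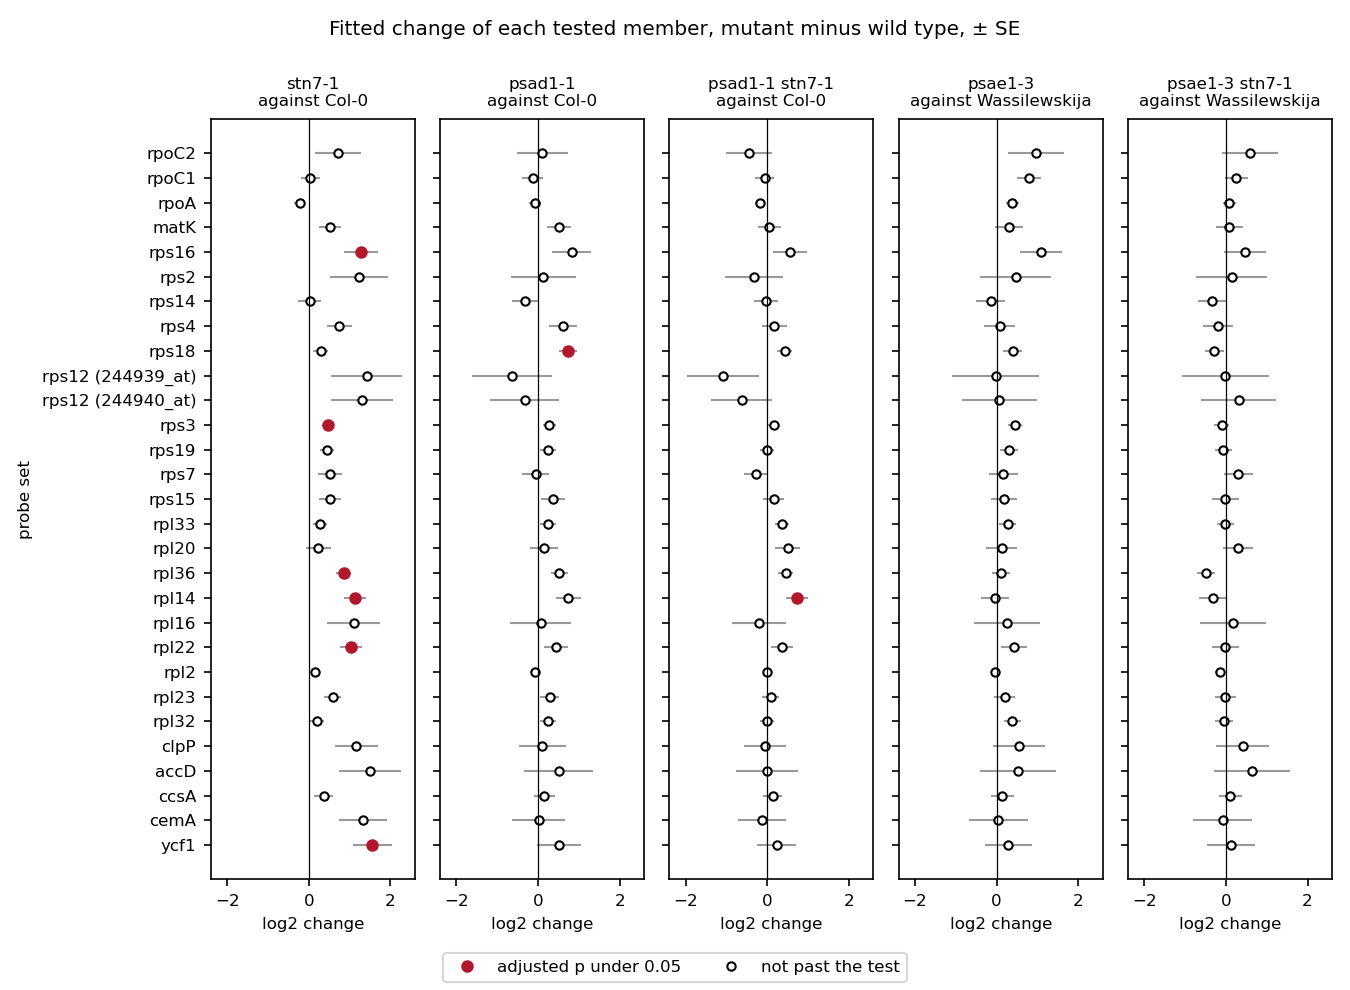
Fitted log2 change (x axis, mutant minus wild type, bars ± SE of the moderated fit) of each of the 29 tested probe sets (y axis, ordered by role), 1 panel a comparison, with filled red points past the test. The 6 filled points of stn7-1 lie between 0.47 and 1.56, 1 point each is filled in psad1-1 and psad1-1 stn7-1, and none in the 2 panels against Wassilewskija.

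Among the polymerase genes, none of the 3 tested passed in any comparison of the fit over all arrays. The alpha subunit gene rpoA had a steady signal of 2157, 1701 and 2569.9 in stn7-1, 2204 and 2500.5 in psad1-1 and 2421, 2069 and 2038 in psad1-1 stn7-1, against 2511, 2447 and 2445 in Col-0. On the arrays of the second set it read 2756 and 3285 in psae1-3 and 2361 and 2516 in psae1-3 stn7-1, against 2169 and 2451 in Wassilewskija. The psae1-3 arrays lay above those of Wassilewskija and the stn7-1 arrays overlapped those of Col-0, with changes of 0.38 log2 (adjusted p = 0.116, SE 0.16) in psae1-3 and −0.22 log2 (adjusted p = 0.235, SE 0.13) in stn7-1.

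The 2 neighbouring genes rpoC1 and rpoC2, for the subunits beta′ and beta″, read higher on both psae1-3 arrays than on both Wassilewskija arrays. They are described because of values already seen. For rpoC1 the signals were 993 and 1360.0 in psae1-3 and 743 and 858 in psae1-3 stn7-1, against 595 and 749.8 in Wassilewskija. For rpoC2 they were 1001 and 1308 in psae1-3 and 1074 and 716 in psae1-3 stn7-1, against 578 and 589.7 in Wassilewskija. The groups did not overlap for psae1-3, with 0.80 log2 (adjusted p = 0.0809, SE 0.29) and 0.97 log2 (adjusted p = 0.383, SE 0.69) over all arrays, and with the second set alone the values were SE 0.18 and adjusted p = 0.0258 for rpoC1 and SE 0.19 and adjusted p = 0.0188 for rpoC2. In the first set rpoC2 read 229.8, 143 and 157 in stn7-1, 59 and 217 in psad1-1 and 51, 55.5 and 164 in psad1-1 stn7-1, against 203, 36.9 and 155 in Col-0, so that psad1-1 replicate A, psad1-1 stn7-1 replicates A and B and Col-0 replicate B were low. There rpoC1 stood between 140.2 and 299.6 in all 11 arrays.

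The gene matK encodes the plastid's intron maturase, a splicing protein. It read 1522, 1437 and 863 in stn7-1, 1321 and 1142 in psad1-1 and 815, 832 and 1041 in psad1-1 stn7-1, against 1101, 469 and 1226 in Col-0. Against Wassilewskija its signals were 3641 and 4119 in psae1-3 and 3401 and 3246 in psae1-3 stn7-1, against 3244 and 3029 in Wassilewskija. Both psae1-3 arrays were above both Wassilewskija arrays, the stn7-1 and Col-0 arrays overlapped, and matK stood at 0.30 log2 (adjusted p = 0.588, SE 0.33) in psae1-3 and at 0.53 log2 (adjusted p = 0.193, SE 0.27) in stn7-1.

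Proteins of the small ribosomal subunit had 11 tested probe sets for 10 genes, of which rps16 and rps3 rose in stn7-1 and rps18 rose in psad1-1. The rps16 signals were 153, 92.1 and 84.2 in stn7-1, 46 and 129 in psad1-1 and 49.9, 46.2 and 115 in psad1-1 stn7-1, against 62.5, 23.5 and 56.6 in Col-0. All stn7-1 arrays lay above all Col-0 arrays, a change of 1.28 log2 (adjusted p = 0.0426, SE 0.42), which passed in 5 of 13 alternative settings, with adjusted p of 0.027 to 0.205. The call was lost with the first set alone, with the replicate block, without the filter, without the variance trend, and without Col-0 replicate B or C or stn7-1 replicate A or B. In psad1-1 the change was 0.82 log2 (adjusted p = 0.177, SE 0.47) with 1 array below the highest Col-0 array and 1 above.

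In the second set rps16 read 268 and 370.2 in psae1-3 and 207 and 202 in psae1-3 stn7-1, against 128 and 172 in Wassilewskija. Both psae1-3 arrays and both psae1-3 stn7-1 arrays lay above both Wassilewskija arrays. The change of 1.08 log2 (adjusted p = 0.178, SE 0.51) was the largest of the members in psae1-3, and it passed with the second set alone (adjusted p = 0.0131, SE 0.19). In psae1-3 stn7-1 the change was 0.46 log2 (adjusted p = 0.6, SE 0.51).

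The rps3 signals were 2149, 2122 and 1719 in stn7-1, 1662 and 1816 in psad1-1 and 1484, 1640.3 and 1685 in psad1-1 stn7-1, against 1473, 1091 and 1829.6 in Col-0. Replicate C of stn7-1 lay below replicate C of Col-0, and the change of 0.47 log2 (adjusted p = 0.0341, SE 0.15) was past the threshold in 4 of 13 alternative settings. The second-set signals of rps3 were 3548 and 4247 in psae1-3 and 2614 and 2668 in psae1-3 stn7-1, against 2995 and 2704 in Wassilewskija, with both psae1-3 arrays above Wassilewskija and a change of 0.45 log2 (adjusted p = 0.114, SE 0.18).

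For rps18 the signals were 624, 346 and 356 in stn7-1, 553 and 604 in psad1-1 and 438, 467 and 494 in psad1-1 stn7-1, against 312, 308 and 436 in Col-0. Both psad1-1 arrays lay above all Col-0 arrays, a change of 0.73 log2 (adjusted p = 0.0107, SE 0.21), and the adjusted p was 0.0824 without psad1-1 replicate B. In psad1-1 stn7-1 the change was 0.42 log2 (adjusted p = 0.085, SE 0.19), with all its arrays above those of Col-0, and in stn7-1 0.29 log2 (adjusted p = 0.306, SE 0.19). The second-set signals of rps18 were 1358 and 1629 in psae1-3 and 1013 and 857 in psae1-3 stn7-1, against 1079 and 1193 in Wassilewskija, so that psae1-3 lay above and psae1-3 stn7-1 below Wassilewskija without overlap, with changes of 0.39 log2 (adjusted p = 0.284) and −0.28 log2 (adjusted p = 0.454).

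A further protein of the small subunit is encoded by rps4, which read 1748, 1423 and 1537 in stn7-1, 983 and 2067 in psad1-1 and 896, 844 and 1521 in psad1-1 stn7-1, against 1427, 529.9 and 1066 in Col-0. Its signals beside Wassilewskija were 5447 and 6294 in psae1-3 and 4808 and 4903 in psae1-3 stn7-1, against 5327 and 5773 in Wassilewskija. The stn7-1 and Col-0 arrays overlapped narrowly (stn7-1 replicate B below Col-0 replicate A), and rps4 stood at 0.75 log2 (adjusted p = 0.0996, SE 0.31) in stn7-1, at 0.61 log2 (adjusted p = 0.168, SE 0.34) in psad1-1 and at 0.08 log2 (adjusted p = 0.915, SE 0.38) in psae1-3. The other small-subunit genes did not pass in any comparison, and their changes ran from −1.08 log2 for rps12 in psad1-1 stn7-1 to 1.42 log2 for the same probe set in stn7-1.

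Proteins of the large subunit had 9 tested probe sets, of which rpl36, rpl14 and rpl22 rose in stn7-1 and rpl14 rose in psad1-1 stn7-1. The rpl36 signals were 2004, 1669 and 1790.4 in stn7-1, 1350.3 and 1541 in psad1-1 and 1273, 1199.6 and 1689.5 in psad1-1 stn7-1, against 1245, 829 and 982 in Col-0. Every stn7-1 array lay above every Col-0 array, a change of 0.85 log2 (adjusted p = 0.00538, SE 0.18). This was the 1 call of the 8 named in the first set that passed in all 13 alternative settings, with adjusted p of 0.00247 to 0.0324. Both psad1-1 arrays also lay above Col-0, at 0.52 log2 (adjusted p = 0.054, SE 0.21), while psad1-1 stn7-1 replicate B lay between the Col-0 arrays and the other 2 above them, a change of 0.45 log2 (adjusted p = 0.0629, SE 0.18). With the first set alone rpl36 passed as higher in psad1-1 (adjusted p = 0.0301, SE 0.18) and in psad1-1 stn7-1 (adjusted p = 0.0355, SE 0.16).

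In the second set rpl36 read 2628 and 2894 in psae1-3 and 2265 and 1479.9 in psae1-3 stn7-1, against 3090.5 and 2119.6 in Wassilewskija. The groups overlapped, and psae1-3 stn7-1 stood at −0.48 log2 (adjusted p = 0.164, SE 0.23), the lowest change of the members there.

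The rpl14 signals were 557, 391 and 353 in stn7-1, 258 and 402 in psad1-1 and 283, 289 and 397 in psad1-1 stn7-1, against 312, 137 and 167 in Col-0. All stn7-1 arrays lay above all Col-0 arrays, a change of 1.14 log2 (adjusted p = 0.00903, SE 0.27), with adjusted p = 0.0513 without Col-0 replicate B. In psad1-1 stn7-1, replicates A and B lay below Col-0 replicate A and replicate C above it, and the call of 0.73 log2 (adjusted p = 0.042, SE 0.27) held in 4 of 13 alternative settings. The second-set signals of rpl14 were 579 and 651 in psae1-3 and 489 and 522 in psae1-3 stn7-1, against 808 and 492 in Wassilewskija, with overlapping groups and a change of −0.04 log2 in psae1-3 (adjusted p = 0.952).

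For rpl22 the signals were 1924, 2018 and 1447 in stn7-1, 953 and 1461 in psad1-1 and 957, 951 and 1543 in psad1-1 stn7-1, against 1073, 517 and 1192 in Col-0. All stn7-1 arrays lay above all Col-0 arrays, a change of 1.03 log2 (adjusted p = 0.0138, SE 0.27), with adjusted p = 0.0644 when Col-0 replicate B was left out, 0.0593 for stn7-1 replicate B and 0.0555 without the filter. Beside Wassilewskija rpl22 read 2709 and 3158 in psae1-3 and 2386 and 1953 in psae1-3 stn7-1, against 2304 and 2056 in Wassilewskija, with both psae1-3 arrays above Wassilewskija and a change of 0.43 log2 (adjusted p = 0.416, SE 0.33).

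The large-subunit gene rpl2 varied little between arrays of a genotype, with signals of 3739, 4086 and 3455 in stn7-1, 3259 and 3132 in psad1-1 and 3350.2, 3236 and 3529 in psad1-1 stn7-1, against 3846, 2917 and 3452 in Col-0. The 6 arrays of the second set gave it 5074 and 5530.0 in psae1-3 and 4918 and 4874 in psae1-3 stn7-1, against 5321 and 5518 in Wassilewskija. Its groups overlapped in stn7-1 and psad1-1, and its changes lay between −0.15 log2 in psae1-3 stn7-1 and 0.15 log2 in stn7-1. The other 5 large-subunit genes did not pass in any comparison, and their changes in stn7-1 ran from 0.20 log2 (rpl32) to 1.10 log2 (rpl16).

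Outside the ribosome, clpP, for the plastid-encoded proteolytic subunit of the Clp protease, did not pass in any comparison of the fit over all arrays. Its signals were 1868, 1636 and 1632 in stn7-1, 449 and 1497 in psad1-1 and 644, 389 and 1569 in psad1-1 stn7-1, against 1405, 298 and 1052 in Col-0. All stn7-1 arrays lay above all Col-0 arrays, but Col-0 replicate B was far below the other 2 and the change was 1.17 log2 (adjusted p = 0.132, SE 0.52). On the second set's arrays it read 3622 and 4409 in psae1-3 and 3465 and 3777 in psae1-3 stn7-1, against 2822 and 2626 in Wassilewskija, with both mutants above Wassilewskija, 0.55 log2 (adjusted p = 0.612, SE 0.64) in psae1-3, where it passed with the second set alone (adjusted p = 0.0279, SE 0.13).

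The gene accD encodes a subunit of the plastid acetyl-CoA carboxylase, which makes the first building block of fatty acids. It read 167, 99.1 and 139 in stn7-1, 22.6 and 193 in psad1-1 and 27.3, 22.5 and 160.3 in psad1-1 stn7-1, against 120.1, 19.3 and 43.3 in Col-0. Replicates differed over 6-fold within psad1-1, psad1-1 stn7-1 and Col-0, and the change in stn7-1 was 1.51 log2 (adjusted p = 0.176, SE 0.75). In the second set the replicates lay close together, at 1045 and 1259.8 in psae1-3 and 1282 and 1207 in psae1-3 stn7-1, against 747 and 850.4 in Wassilewskija. Both mutants lay above Wassilewskija, but neither passed over all arrays, at 0.53 log2 (adjusted p = 0.75, SE 0.92) in psae1-3 and, for psae1-3 stn7-1, 0.64 log2 (adjusted p = 0.698, SE 0.92). With the second set alone accD passed in psae1-3 (adjusted p = 0.0419, SE 0.13) and also in psae1-3 stn7-1 (adjusted p = 0.0135, SE 0.13).

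The gene ccsA, whose product helps attach haem to cytochromes in the thylakoid lumen, read 1449, 1285 and 1240.3 in stn7-1, 906 and 1424 in psad1-1 and 843, 1097 and 1523 in psad1-1 stn7-1, against 1307, 686 and 1201 in Col-0. Its second-set signals were 3852 and 4735 in psae1-3 and 4138 and 4207 in psae1-3 stn7-1, against 4059 and 3698 in Wassilewskija. The stn7-1 and Col-0 arrays overlapped, and its changes lay between 0.11 log2 in psae1-3 stn7-1 and 0.37 log2 in stn7-1 (adjusted p = 0.289).

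Among the envelope genes, ycf1, for a component of the protein import machinery of the inner envelope, rose in stn7-1. Its signals were 1396, 1153 and 846 in stn7-1, 321 and 899.8 in psad1-1 and 361, 287 and 823 in psad1-1 stn7-1, against 676, 157 and 499.7 in Col-0. All stn7-1 arrays lay above all Col-0 arrays, a change of 1.56 log2 (adjusted p = 0.0303, SE 0.47), and passed in 8 of 13 alternative settings. The call was lost without the filter, with the first set alone (adjusted p = 0.0549), and without Col-0 replicate B (0.156) or stn7-1 replicate A (0.101) or B (0.0846). On the arrays of the second set it read 1278 and 1463 in psae1-3 and 1198 and 1250.0 in psae1-3 stn7-1, against 1347 and 934 in Wassilewskija, with overlapping groups in psae1-3 and 0.29 log2 (adjusted p = 0.785).

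The envelope membrane gene cemA read 1384, 1207 and 782 in stn7-1, 241 and 801 in psad1-1 and 301, 209 and 1016 in psad1-1 stn7-1, against 974, 160.3 and 529.8 in Col-0. Against Wassilewskija its signals were 4449.6 and 4822 in psae1-3 and 4161 and 4395 in psae1-3 stn7-1, against 4629 and 4403 in Wassilewskija. It did not pass in any comparison, and stn7-1 replicate C lay below Col-0 replicate A. Its change was 1.33 log2 (adjusted p = 0.128, SE 0.59) in stn7-1, while psae1-3 stood at 0.04 log2 (adjusted p = 0.979, SE 0.72).

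In the first set many members varied widely between arrays of the same genotype. The highest array was over 4 times the lowest in 0 of 29 tested members in stn7-1, 5 in psad1-1, 7 in psad1-1 stn7-1 and 9 in Col-0. Of all tested probe sets 0.169% did so in stn7-1, 0.147% in psad1-1, 0.22% in psad1-1 stn7-1 and 0.725% in Col-0. In the second set no member did so in any genotype. The plastid-encoded photosynthesis genes did so in 5 of 35 in psad1-1, 7 in psad1-1 stn7-1 and 7 in Col-0.

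**Figure D2:**
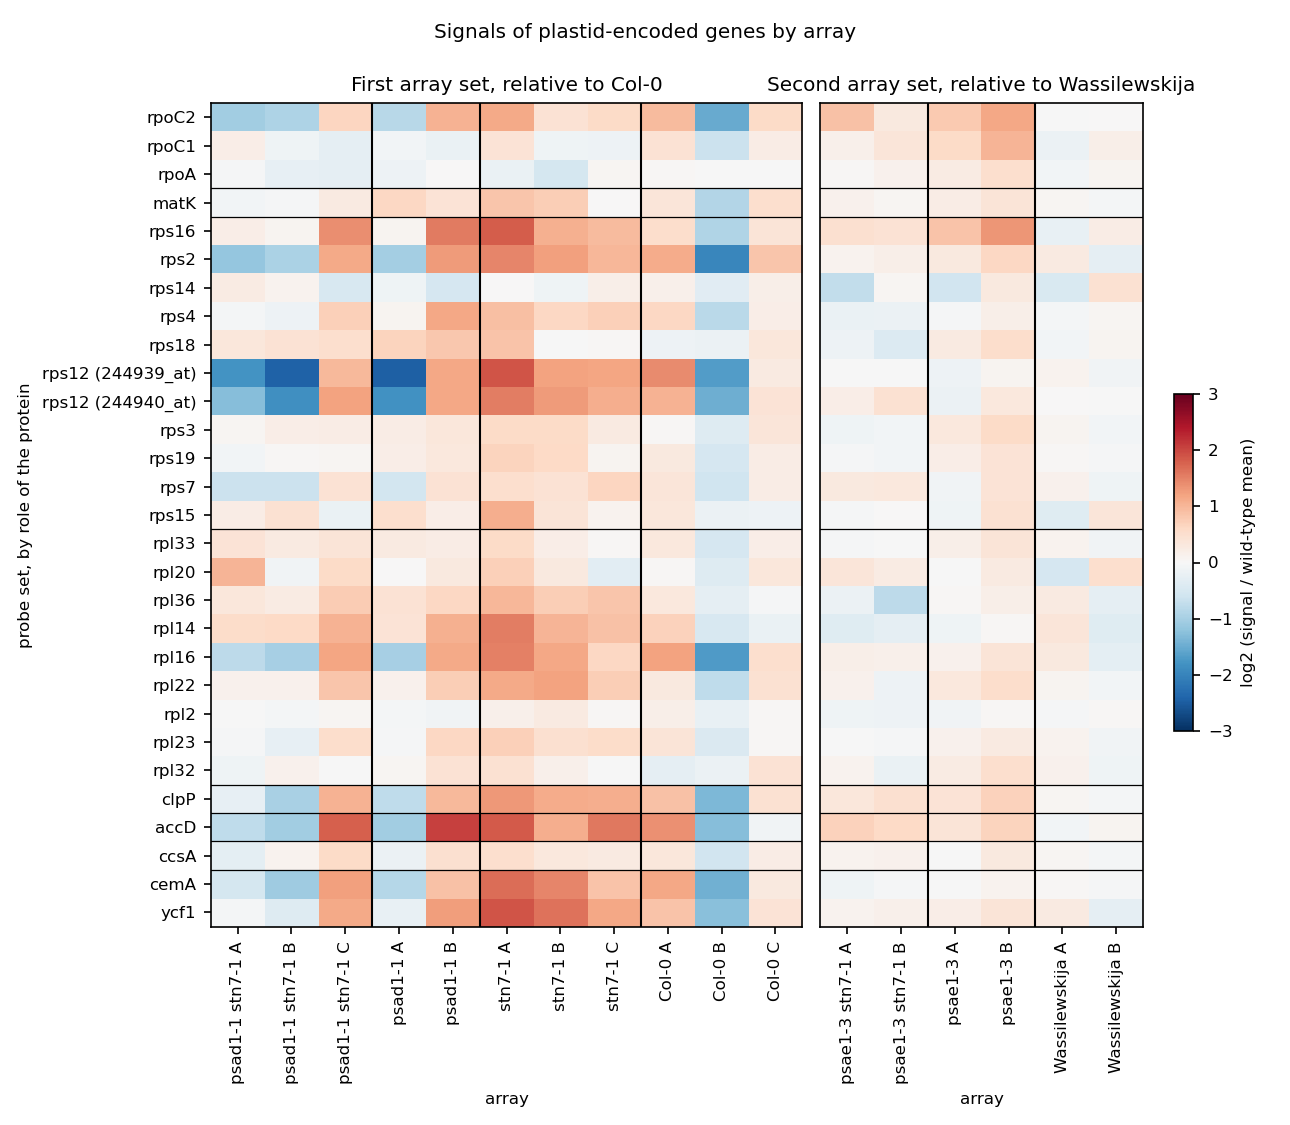
Signal of each of the 29 tested probe sets (rows, by role) on each array (columns) as log2 of its ratio to the mean of the log2 signals of the wild type of the same set, red above and blue below, with black lines between genotypes. In the first set psad1-1 A, psad1-1 stn7-1 A and B and Col-0 B are blue for rps12, rps2, rpl16, accD, clpP, cemA and rpoC2. The blue is palest for clpP in psad1-1 stn7-1 A, and rpoA, rpl2 and rps3 are mostly pale. In the second set no colour is as deep as the deepest blue of rps12 in the first.

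Among the tested members the highest ratio within a genotype, 12.3-fold in psad1-1, was that of rps12, which encodes a protein of the decoding centre and whose message is joined from separate precursors by trans-splicing; it was chosen after its values were seen, as were rps2 and rpl16. Its probe set 244939_at read 517, 324 and 322 in stn7-1, 25.8 and 317 in psad1-1 and 40.8, 26.3 and 275 in psad1-1 stn7-1, against 375, 44.1 and 169 in Col-0. Its other probe set, 244940_at, read 1757, 1477 and 1293 in stn7-1, 172 and 1349 in psad1-1 and 251, 169 and 1400.2 in psad1-1 stn7-1, against 1256, 218 and 810.1 in Col-0. In both, psad1-1 replicate A, psad1-1 stn7-1 replicates A and B and Col-0 replicate B were below every other array, and the 3 stn7-1 arrays lay within 1.61-fold and 1.36-fold of each other.

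In the second set 244939_at read 151 and 179 in psae1-3 and 167 and 166 in psae1-3 stn7-1, against 179 and 157 in Wassilewskija, a spread of at most 1.18-fold within a genotype, and 244940_at read 924 and 1298 in psae1-3 and 1191 and 1428 in psae1-3 stn7-1, against 1049.8 and 1041 in Wassilewskija, a spread of at most 1.41-fold. The small-subunit gene rps2 read 757, 637 and 538 in stn7-1, 134 and 659.9 in psad1-1 and 122, 142 and 599 in psad1-1 stn7-1, against 593, 69.8 and 487 in Col-0. The large-subunit gene rpl16 read 1763, 1394 and 959.7 in stn7-1, 309.7 and 1356 in psad1-1 and 361, 310.0 and 1420.5 in psad1-1 stn7-1, against 1423, 192 and 876 in Col-0. In rps2 and rpl16 the same 4 arrays were the lowest of the 11. By contrast rpoA, rpl2, rps3 and rps19 stayed within 1.72-fold in each of the 4 genotypes of the first set.

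**Figure D3:**
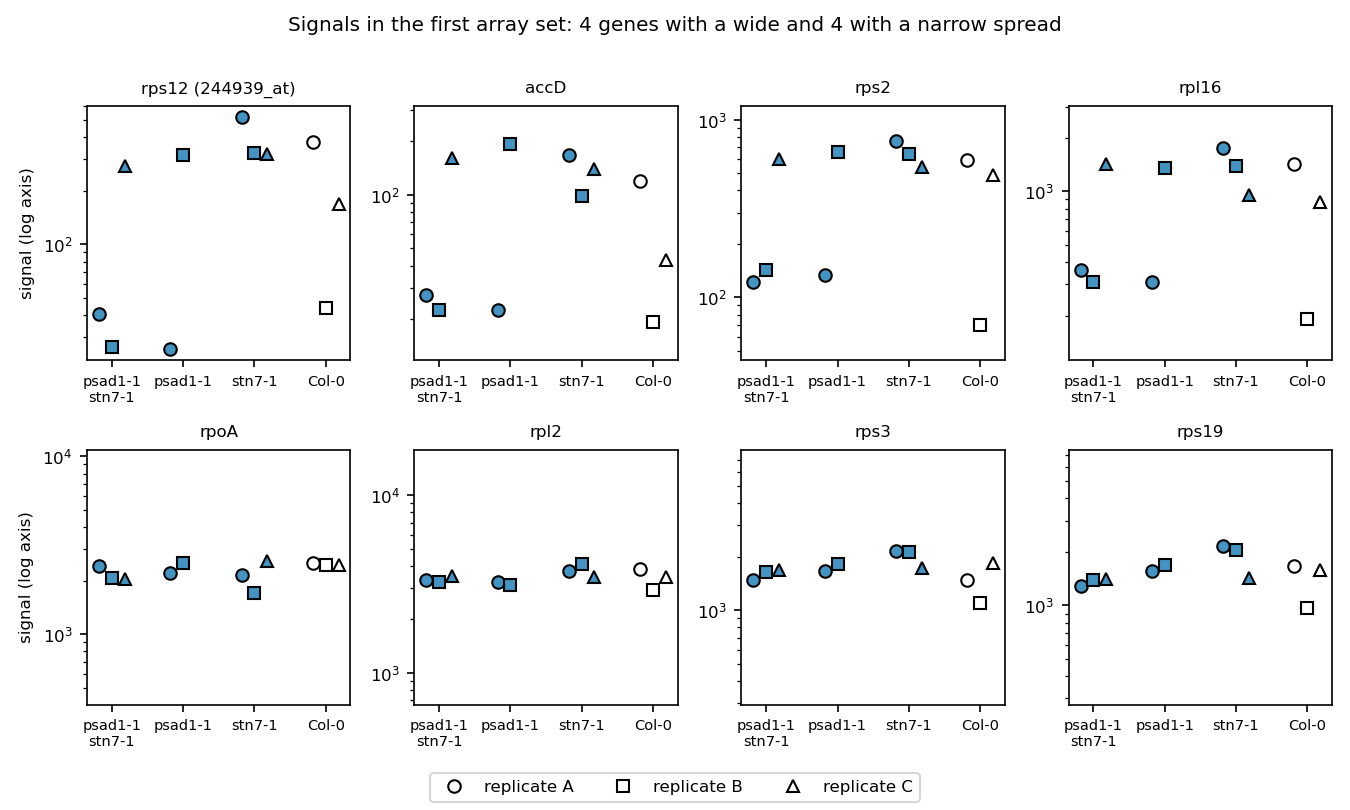
Signals on the 11 arrays of the first set (log y axis, the same number of folds in each panel, marker shape for the replicate, open for Col-0) of 4 genes with a wide and 4 with a narrow spread, chosen after their values were seen. In the upper panels psad1-1 replicate A, psad1-1 stn7-1 replicates A and B and Col-0 replicate B lie low, and in the lower panels all arrays lie close together.

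Over the members, psad1-1 replicate A was the lower of the 2 psad1-1 arrays in 23 of 31, and psad1-1 stn7-1 replicate C the highest of its 3 in 23 of 31, against 51.9% and 32.6% of all tested probe sets. The 25S rRNA control read 1468 and 2128 in psad1-1 and 1545, 1328 and 1779 in psad1-1 stn7-1. Within each of these genotypes the replicates with the higher member signals also had more of it. The actin 3′ to 5′ ratio was 3.20 and 2.73 in psad1-1, 2.98, 2.56 and 2.22 in psad1-1 stn7-1 and 2.64, 2.76 and 3.39 in Col-0. The part of either in the spread was not tested. Over all tested probe sets the correlation of log2 signals between 2 arrays of 1 genotype was 0.962 to 0.983 (13 pairs). In the second set psae1-3 replicate B was above replicate A in 31 of 31 members, against 52.9% of all tested probe sets. The actin ratio there was 1.87 in psae1-3 replicate A and 2.97 in replicate B. It was 2.58 and 2.41 in psae1-3 stn7-1 and 2.01 and 1.92 in Wassilewskija, and its part was not tested.

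Neighbouring genes had unequal spreads. The genes rpl23, rpl2, rps19, rpl22, rps3, rpl16, rpl14, rpl36 and rpoA lie in this order in a cluster known from bacteria. In psad1-1 the highest over the lowest array was 4.38 for rpl16, but 1.09 for rps3 on 1 side of it and 1.56 for rpl14 on the other. In psad1-1 stn7-1 the ratio was 4.58 for rpl16, 1.14 for rps3 and 1.40 for rpl14, and in Col-0 it was 7.40, 1.68 and 2.27 for the same genes. In the cluster of rpoB, rpoC1, rpoC2 and rps2 the ratio in Col-0 was 2.14 for rpoC1, 5.51 for rpoC2 and 8.50 for rps2. The unequal spread was not tested, and the probe sets of neighbours can read different parts of a shared precursor.

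**Figure D4:**
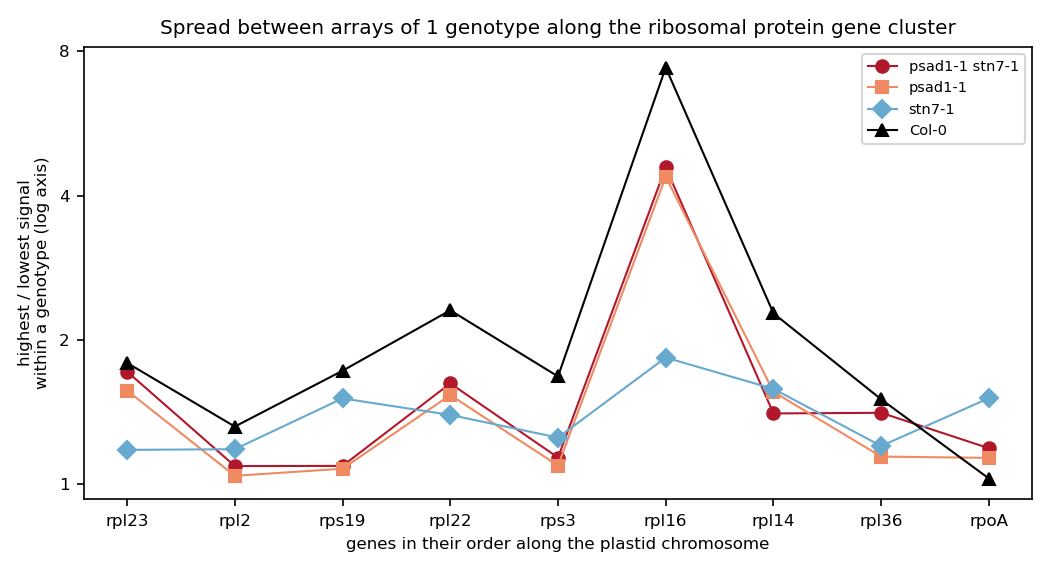
Highest over lowest signal among the arrays of each genotype of the first set (log y axis) for 9 genes in their order along the plastid chromosome. The line peaks at rpl16 in psad1-1 stn7-1 (4.58), psad1-1 (4.38) and Col-0 (7.40), and stays below 2 throughout in stn7-1.

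Genes of the nucleus whose products work with the members were counted from lists chosen with earlier results of these data known. Most genes of each list had no named probe set here, except for cytochrome maturation, where 2 of 3 genes had one. Of 36 nuclear-encoded proteins of the plastid ribosome 10 were tested, and 10 rose in stn7-1, 9 in psad1-1, 10 in psad1-1 stn7-1, 10 in psae1-3 and 1 in psae1-3 stn7-1, with none lower. Their median changes were 0.61, 0.61, 0.68, 0.75 and 0.16 log2 in the same order. The 20 plastid-encoded ribosomal probe sets passed as higher in 5, 1, 1, 0 and 0 cases. For the large subunit their median changes were 0.59, 0.24, 0.35, 0.20 and −0.02 log2. For the small subunit they were 0.53, 0.25, −0.000849, 0.17 and −0.01 log2. In stn7-1 all 9 large-subunit and all 11 small-subunit probe sets stood above 0. A call depends on the spread between arrays as well as on the change. Of all tested probe sets 9.74%, 19.3%, 19.2%, 5.41% and 7.43% were higher, in the same order. The difference between the lists was not tested.

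Those with the largest changes that passed were RPL19 (AT4G17560), PSRP1 (AT5G24490), RPL19B (AT5G47190) and RPS10 (AT3G13120). RPL19 read 621, 825 and 553 in stn7-1, 867 and 688 in psad1-1 and 906, 850.4 and 894 in psad1-1 stn7-1, against 424, 339 and 405 in Col-0. Its signals beside Wassilewskija were 753 and 631 in psae1-3 and 294 and 441 in psae1-3 stn7-1, against 376 and 330.1 in Wassilewskija. The mutant arrays lay above those of the wild type except in psae1-3 stn7-1, with 0.97 log2 (adjusted p = 0.00603, SE 0.20) in psae1-3 and 0.03 log2 (adjusted p = 0.941, SE 0.20) in psae1-3 stn7-1. Fewer of the nuclear-encoded ribosomal proteins passed in psad1-1 without psad1-1 replicate A and in psae1-3 without Wassilewskija replicate B. Each of these fits leaves 1 array in a genotype, and calls over all tested probe sets fell too. The median change of the list was then 0.52 log2 in psad1-1 and 0.55 log2 in psae1-3.

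**Figure D5:**
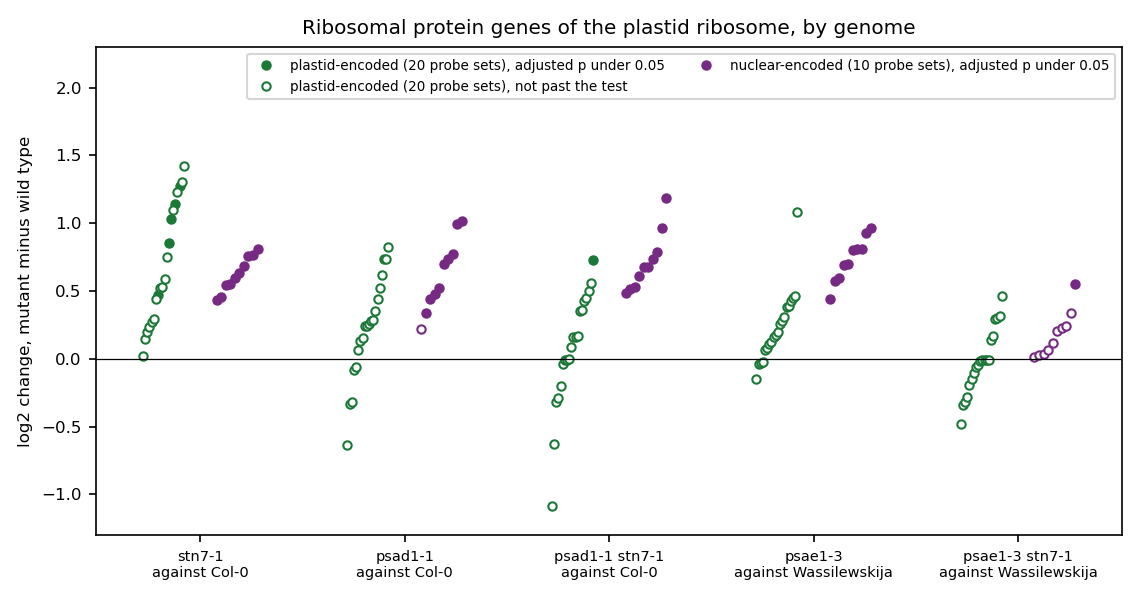
Log2 change (y axis, mutant minus wild type) of proteins of the plastid ribosome encoded in the plastid (20 probe sets, green, left) and in the nucleus (10 probe sets, purple, right) in the 5 comparisons, filled where past the test. The nuclear points are filled in 10, 9, 10, 10 and 1 cases and the plastid points in 5, 1, 1, 0 and 0. Of all tested probe sets 9.74%, 19.3%, 19.2%, 5.41% and 7.43% were higher.

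The nuclear-encoded Clp subunits, partners of clpP, had 4 of 13 genes tested (CLPT1, CLPP4, CLPT2, CLPR3). In stn7-1 all 4 rose, and 2 rose in psad1-1, 1 in psad1-1 stn7-1, 1 in psae1-3 and 0 in psae1-3 stn7-1. The shares of all tested probe sets higher were 9.74%, 19.3%, 19.2%, 5.41% and 7.43% in the same order. CLPT1 stood at 0.65 log2 (adjusted p = 0.00157, SE 0.11) in stn7-1 and 0.72 log2 (adjusted p = 0.000267, SE 0.13) in psad1-1. Of the other genes of cytochrome maturation, CCS1, which works with ccsA, rose in all 5 comparisons, by 0.52, 0.68, 0.59, 0.99 and 0.50 log2. Its partner CCDA rose in psad1-1 stn7-1, by 0.31 log2 (adjusted p = 0.0322, SE 0.11), and did not pass in the other 4.

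The RNA-binding ribonucleoprotein CP29B (AT2G37220), 1 of 5 listed plastid ribonucleoproteins with a named probe set, rose in stn7-1, psad1-1, psad1-1 stn7-1 and psae1-3, by 0.87, 1.13, 0.92 and 0.75 log2, and did not pass in psae1-3 stn7-1, at 0.50 log2 (adjusted p = 0.0776, SE 0.18). Of the nuclear polymerase and sigma factor genes, RPOTMP had a probe set, at 2.43 to 21.9, which was too dim to be tested. The lists of polymerase-associated proteins, of carboxylase subunits that work with accD and of import partners of ycf1 had no named probe set here.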

How the data were processed

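The authors deposited signal intensities on a linear scale, 1 value per probe set and array, made with GCOS and MAS5 per the submitters' processing notes, with versions not given in the sources used here. Labelling followed a one-cycle protocol through double-stranded cDNA per the labels, a kind that primes on poly(A) tails, so how a mostly untailed plastid transcript is captured could affect its signal. Arrays were brought to a 2% trimmed mean of 100. Signals under 1.58, the 10th percentile, were raised to it before log2. After leaving out 64 control probe sets and the dimmest 40% by mean, 13648 were tested. The tool was limma 3.58.1 (R 4.3.3), using lmFit and eBayes with a trend on all 17 arrays, each genotype having its own mean, with 10 residual and 6.04 prior degrees of freedom. All tests were two-sided, with Benjamini-Hochberg adjustment and a threshold of 0.05. The fit was run on simulated arrays with known changes, whose noise had the same SD in both array sets for each probe set. That run cannot check the fit for the members, whose spread differed between the sets. The number of arrays limits the precision.

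Probe sets were named from an annotation table that lists 14016 of 22810, of which 13513 have 1 gene and 503 several. Members and lists were chosen with earlier results of these data known. Members are given with every array if they passed in a comparison or had the highest mean signal of their role, and the others by counts and ranges. Signals of rpoC1, rpoC2, rps12, rps2 and rpl16 are also given, chosen after their values were seen. From each nuclear list up to 4 genes are named by largest change. The lists are nuclear-encoded plastid ribosomal proteins, Clp subunits, cytochrome maturation, ribonucleoproteins, sigma factors and polymerases, polymerase-associated proteins, carboxylase subunits and import partners. Of marker lists, leaf mesophyll (PRK, RCA), root (PYK10) and guard cells (FAMA, 34.0 to 64.5 on all arrays) had a named probe set, and flower and phloem had none. The alternatives were other scalings, floor, filter and model settings, a replicate block, each array left out in turn, and members with 1 gene ID only, the last chosen after seeing the data.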

Additional observations from a re-analysis of the deposited data

How the results depend on the processing

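All members that passed were higher in each setting, and the median kept its side of 0 in stn7-1 and psae1-3 but not in the other 3 comparisons. In stn7-1 against Col-0 the 6 calls became 2 without the filter and 3 with each array set fitted alone, 8 under array median scaling and 4 with the replicate block, and 1 to 10 with 1 array left out. In psad1-1 the 1 call became 4 under array median scaling and 2 with the set alone or the replicate block, and 0 to 4 with 1 array left out. In psad1-1 stn7-1 the 1 call became 4 under array median scaling and 0 without the filter or without the variance trend, and 0 to 3 with 1 array left out. In psae1-3 the 0 calls became 3 under array median scaling, where the median change was 0.45 log2, and 5 with its set alone, and in psae1-3 stn7-1 they became 1 with its set alone. With 1 array left out the median was 0.25 to 0.79 log2 in stn7-1, −0.08 to 0.62 in psad1-1 (below 0 without Col-0 replicate B or psad1-1 replicate B), −0.21 to 0.30 in psad1-1 stn7-1, 0.16 to 0.39 in psae1-3 and −0.09 to 0.09 in psae1-3 stn7-1. Scaling to the array median moved the median of all probe sets by over 0.1 in psad1-1 (to 0.12) and psae1-3 (to 0.07), and the higher share of all calls to 71.8%, 63.6%, 58.1% and 78.2% in stn7-1, psad1-1, psad1-1 stn7-1 and psae1-3, against 51.5%, 47.8%, 47.1% and 44.0%. With members of 1 gene ID only, 5, 1, 1, 0 and 0 of 23 passed. The deviations of same-lettered arrays from their genotype means had correlations of −0.11 to 0.27. The highest were 0.27 for replicates A of stn7-1 and Col-0 and 0.25 for replicates B of psad1-1 stn7-1 and Col-0. In the second set, with 2 arrays a genotype, both letters give the same value by construction. The letters were not taken as pairs, and the replicate block left 0 calls in both comparisons against Wassilewskija. Where a lone array was left in a genotype it was taken to vary like the others. Causes of these shifts were not tested. Signals near the background of 8.15 limit rpoB and ycf2.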
